A study of Mus musculus with 14 samples.

Results

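Immediate early genes are the first genes that a cell transcribes after a stimulus, and 10 of them were followed here through newborn mouse cortex: Fos, Fosb, Jun, Junb, Egr1, Npas4, Nr4a1, Arc, Ier2 and Dusp1. They were chosen by name, and all 10 were found among the 51626 gene symbols of the deposited tables. The study asked what loss of Auts2, a gene linked to neurodevelopmental disorders, does to RNA levels in cortex and which RNAs come down with the AUTS2 protein. Its 14 libraries came from mice at postnatal day 0.5. Frontal (rostral) cortex was taken from 4 wild type C57BL6/J animals and 4 conditional knockouts (cKO) on the same background, which carried EMX1-cre and floxed alleles of Auts2 exon 15 on both chromosomes. Cre driven by Emx1 acts in the progenitors of cortical excitatory neurons, so interneurons, microglia and vessel cells in the dissected tissue are expected to keep the gene, and libraries from animals with Cre alone or with floxed alleles alone were not analysed here. RNA immunoprecipitation (RIP) was done with an antibody to the AUTS2 C-terminal part on wild type C57BL6/J cortex, 2 neonates pooled per replicate, and each of 2 replicates (A and B) was split into AUTS2 RIP, a control precipitation with IgG, and a 10% input.

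Values are FPKM, fragment counts scaled for the length of the transcript and the size of the library, with all transcripts of a symbol added up. The 3 tables (cKO with wild type, RIP with IgG, RIP with input) were scaled separately, so every test stays within its own table. Their depth in reads is unknown. Auts2 itself, the check of the labels, ranged from 55.9 to 92.2 FPKM over the 4 wild type libraries and from 29.8 to 35.2 FPKM over the 4 cKO libraries (log2 -1.13, SE 0.14, adjusted p = 0.0237, limma). Wild type 1, wild type 2 and cKO 1 stood apart from the other 5 frontal cortex libraries in the correlations between libraries. Xist, transcribed from the inactive X chromosome of females, read 217 FPKM in wild type 2 and 212 to 250 FPKM in cKO 1 to 3, and below 0.5 FPKM in wild type 1, 3 and 4 and in cKO 4, so the groups differ in Xist state (1 of 4 wild type and 3 of 4 cKO libraries high). Library cKO 4 carries different short names in its label and its column and was matched by its library number.

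Many immediate early genes encode transcription factors. FOS and JUN family proteins pair up as the factor AP-1, EGR1, NPAS4 and NR4A1 bind DNA on their own or with other partners, and ARC, IER2 and DUSP1 act at synapses, in the nucleus and on MAP kinases. Their transcription does not wait for new protein, because the factors that start it (CREB, SRF and the ELK proteins) are already bound or present and are switched on by calcium and MAP kinase signalling. The mRNAs are short-lived, partly through AU-rich stretches in the 3′ UTR that recruit decay enzymes. In neurons the genes are used as markers of recent activity.

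Regulatory sequences of both kinds are shown for Fos and Dusp1, the pair whose levels varied together most closely across animals. The 250 bases before the RefSeq start were searched on both strands for TGACG, the short form of the CREB site. RefSeq windows on GRCm38.p6 matched 7 of the 10 genes, with none for Egr1, Arc and Ier2. TGACG was found in 6 of those 7, against 17.8% of 32851 windows of that length. Jun was the gene without a match. The searched bases of Nr4a1, Npas4 and Dusp1 lie before the RefSeq start but within the span that GENCODE gives the gene. The full palindrome TGACGTCA, which holds TGACG on both strands, was found in the Dusp1 window alone, against 1.55% of all windows. An exact CArG box, the SRF site (CC, 6 bases of A or T, GG), was found in none of the 7, against 1.47%. Bases farther upstream and looser forms of the box were not searched, so its absence from these genes' regulatory sequence was not shown. The lines below give the Fos window (chr12:85473640-85473889, plus strand) and the part of the Dusp1 window that lies before the main GENCODE transcript (chr17:26508520-26508722, minus strand), with TGACG or its reverse complement in capitals.
Fos: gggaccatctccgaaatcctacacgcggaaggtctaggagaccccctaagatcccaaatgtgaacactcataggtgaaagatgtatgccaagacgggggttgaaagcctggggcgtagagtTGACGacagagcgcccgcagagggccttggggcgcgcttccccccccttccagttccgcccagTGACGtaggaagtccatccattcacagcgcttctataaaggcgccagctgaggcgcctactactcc
Dusp1: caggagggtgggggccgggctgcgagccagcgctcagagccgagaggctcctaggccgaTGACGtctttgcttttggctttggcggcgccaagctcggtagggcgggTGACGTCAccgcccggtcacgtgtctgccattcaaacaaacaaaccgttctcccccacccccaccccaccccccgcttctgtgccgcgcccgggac

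The core of an AU-rich element, ATTTA, was counted in the 3′ UTR of each gene's main coding transcript (GENCODE vM21, GRCm38). It occurred 4 times in Fos, Jun and Dusp1, 3 times in Nr4a1, 2 times in Junb and Egr1, 1 time in Fosb and Npas4, and not in Arc or Ier2. Of 11125 tested genes with a 3′ UTR, 70.3% held at least 1 copy, with a median of 1.36 per kb, against 5.80 per kb in Dusp1, 5.53 in Nr4a1, 4.91 in Fos, 4.12 in Junb, 3.24 in Jun, 1.68 in Egr1, 1.40 in Npas4 and 0.466 in Fosb. The densest 30 bases of the Fos UTR (chr12:85477100-85477129, plus strand) and of the Dusp1 UTR (chr17:26506157-26506186, minus strand) hold the same overlapping double copy, shown in capitals.
Fos: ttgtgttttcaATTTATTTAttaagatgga
Dusp1: agctggtccttATTTATTTAacacccccct
A match to a motif describes these letters and was not tested as a site.

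In newborn frontal cortex the 10 genes were expressed at low to moderate levels. In wild type, Jun was the highest at 9.44 ± 1.00 FPKM (SD, n = 4), followed by Dusp1 at 6.83 ± 0.66, Egr1 at 5.04 ± 1.11, Nr4a1 at 4.62 ± 0.88 and Ier2 at 3.46 ± 0.36 FPKM. Fos stood at 1.26 ± 0.29, Npas4 at 1.2 ± 0.25, Junb at 1.01 ± 0.21, Arc at 0.32 ± 0.10 and Fosb at 0.17 ± 0.12 FPKM. The libraries of Egr1 and Nr4a1 overlapped, as did those of Fos, Npas4 and Junb and those of Arc and Fosb, so the order inside these groups is within the spread between animals. Egr1 also fell below Ier2 in wild type 2, and all other neighbours in the order were separated in all 4 wild type libraries. Jun lay at the 44.4th percentile of tested genes and Junb at the 0.766th, and Arc and Fosb stayed under the mean of 1 FPKM that a gene needed to be tested.

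**Figure D1:**
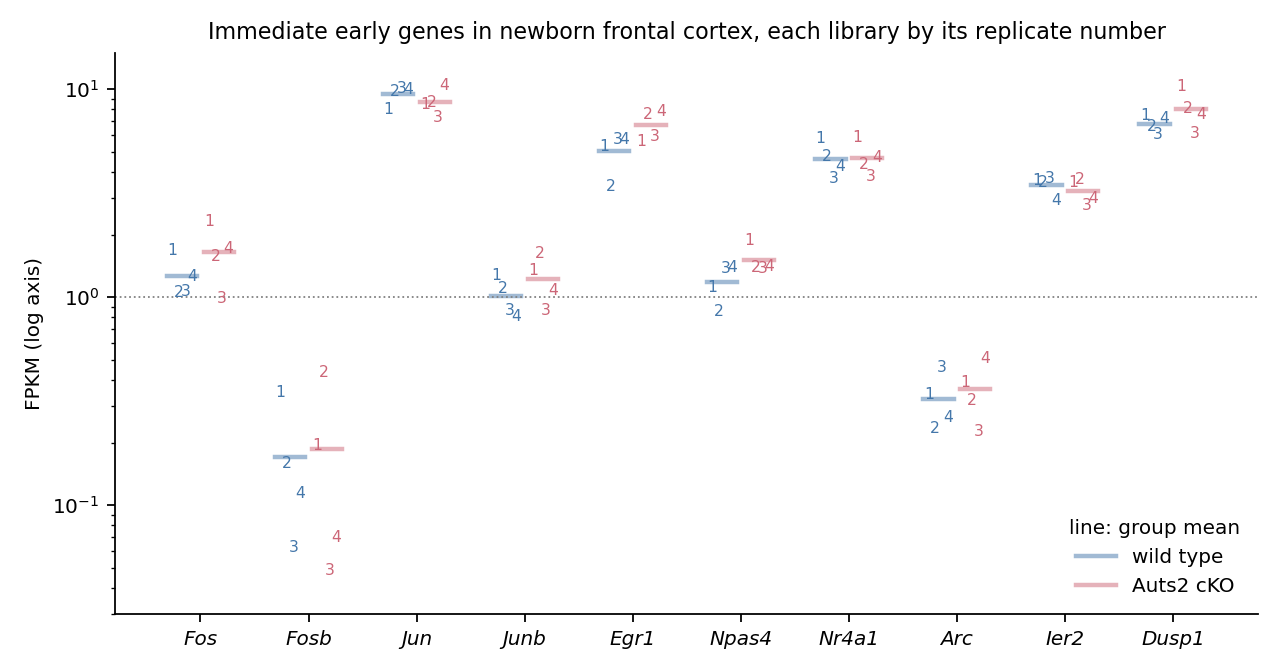
FPKM (log axis) of the 10 immediate early genes in wild type (blue) and Auts2 cKO (red) frontal cortex, each digit being 1 library by its replicate number and each line a group mean. The digits of both groups interleave for every gene, Jun runs from 7.33 to 10.5 FPKM, and Fosb and Arc lie below the dotted line at 1 FPKM.

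Loss of Auts2 did not move the level of any of the 8 testable genes past the threshold. In limma across 12786 genes with Benjamini-Hochberg adjustment 0 of the 8 were called, where 0.0235% of all tested genes were (3 genes, Auts2 among them), and 1 of the 8, Egr1, had an unadjusted p under 0.05. The groups overlapped for every one of the 10 genes, against 4.41% of tested genes whose groups did not overlap. Differences were positive for 6 of the 8, with a median of 0.16 on the log2(FPKM + 1) scale, beside 0.0013 for all tested genes. Marker sums of cell types are given in FPKM for the same animals, cKO before wild type. They were 187 to 325 and 155 to 194 for interneurons, and 668 to 762 and 707 to 752 for excitatory neurons. Radial glia and astrocyte markers summed to 383 to 448 and 361 to 440, and microglia markers to 26 to 34 and 24 to 35. Endothelial and pericyte markers summed to 58.5 to 65.5 and 59.3 to 64.6, and red blood cell markers to 52.7 to 68.1 and 47.9 to 57.4. Striatal neuron markers summed to 56.7 to 79.3 and 56.6 to 65.1. The 6 meningeal fibroblast markers, none testable, summed to 1.34 to 1.58 and 1.19 to 1.39. Their part in the members' values was not tested. In bulk tissue a change in cells of a type and a change in RNA per cell cannot be told apart.

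Among the AP-1 genes, Fos (chr12:85473890-85477273) read 1.67, 1.06, 1.06 and 1.25 FPKM in wild type 1 to 4 and 2.32, 1.57, 0.984 and 1.71 FPKM in cKO 1 to 4. The highest and the lowest Fos value both belonged to a cKO animal, and the difference was 0.21 on the log2 scale (SE 0.15, adjusted p = 0.681, limma), 0.09 without cKO 1 and 0.34 without cKO 3. Jun (chr4:95049034-95052222) read 7.96, 9.79, 10.1 and 9.93 FPKM in wild type animals, and 8.44, 8.59, 7.33 and 10.5 FPKM in the cKO animals, a difference of -0.11 (SE 0.11, adjusted p = 0.752, limma), -0.04 without cKO 3 and -0.19 without cKO 4. Wild type 1 lay below the other 3 wild type libraries, which were close to each other. Junb (chr8:84974484-84978718) ranged from 0.811 to 1.27 FPKM in wild type animals, and from 0.860 to 1.62 FPKM in the cKO animals. Fosb (chr7:19302696-19310051), which also gives the long-lived ΔFosB protein, ranged from 0.063 to 0.348 FPKM in wild type animals, and from 0.049 to 0.435 FPKM in the cKO animals.

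Egr1 (chr18:34859823-34864984), a zinc finger factor, showed the largest difference of the 8. Its levels were 5.31, 3.40, 5.71 and 5.73 FPKM in wild type animals, and 5.59, 7.55, 5.89 and 7.77 FPKM in the cKO animals. Only wild type 2 lay far below the rest, and cKO 1 lay inside the wild type range. The difference was 0.36 (SE 0.15, unadjusted p = 0.0325, adjusted p = 0.628, limma), between 0.22 and 0.43 when each library was left out in turn, lowest without wild type 2. With Xist state as a covariate it was 0.57 (SE 0.13, unadjusted p = 9.4e-04, adjusted p = 0.436, limma), and without the 3 libraries that stood apart 0.26 (SE 0.12, adjusted p = 0.981, limma). Npas4 (chr19:4984355-4990316), a factor made almost only in neurons after calcium entry, read 1.12, 0.858, 1.37 and 1.39 FPKM in wild type animals, and 1.87, 1.39, 1.37 and 1.41 FPKM in the cKO animals. Apart from cKO 1 the cKO values sat near the highest wild type value, and the difference was 0.20 (SE 0.12, adjusted p = 0.641, limma). It was 0.13 without wild type 2 and 0.0061 (SE 0.12) without the 3 libraries that stood apart. Nr4a1 (chr15:101254269-101274795), an orphan nuclear receptor, had nearly equal group means of 4.62 ± 0.88 and 4.67 ± 0.87 FPKM (SD, n = 4 each; log2 0.01, SE 0.14), and the sign of its difference changed with the library left out.

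Among the effectors, Dusp1 (chr17:26505590-26562128), a phosphatase that switches off MAP kinases, read 7.50, 6.58, 6.03 and 7.21 FPKM in wild type animals, and 10.3, 8.07, 6.15 and 7.59 FPKM in the cKO animals. The cKO mean was raised by cKO 1, and cKO 3 lay near the lowest wild type value (log2 0.19, SE 0.13, adjusted p = 0.663, limma; 0.08 without cKO 1, 0.30 without cKO 3, and 0.12 without the 3 libraries that stood apart). Ier2 (chr8:84661331-84662852) stood at 3.46 ± 0.36 FPKM in wild type animals, and 3.24 ± 0.43 FPKM in the cKO animals (SD, n = 4 each; log2 -0.07, SE 0.11). Arc (chr15:74669083-74672570), whose protein assembles into capsid-like shells at synapses, ranged from 0.235 to 0.458 FPKM in wild type animals, and from 0.226 to 0.508 FPKM in the cKO animals.

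The extreme values gathered in a few animals. Of the 10 genes, 4 had their highest value in cKO 1 (Fos, Npas4, Nr4a1 and Dusp1) and 5 their lowest in cKO 3 (Fos, Fosb, Jun, Arc and Ier2). In SD units over the 8 libraries, the mean of the 8 testable genes was 0.96 in cKO 1 and -0.88 in cKO 3, and it lay between -0.50 and 0.50 in the other 6. The genes did not all move together: Jun was below its mean in cKO 1 (-0.51), and Egr1 was near its mean there (-0.11). cKO 1 is also among the 3 libraries that stood apart across all genes, and its part in these values was not tested.

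**Figure D2:**
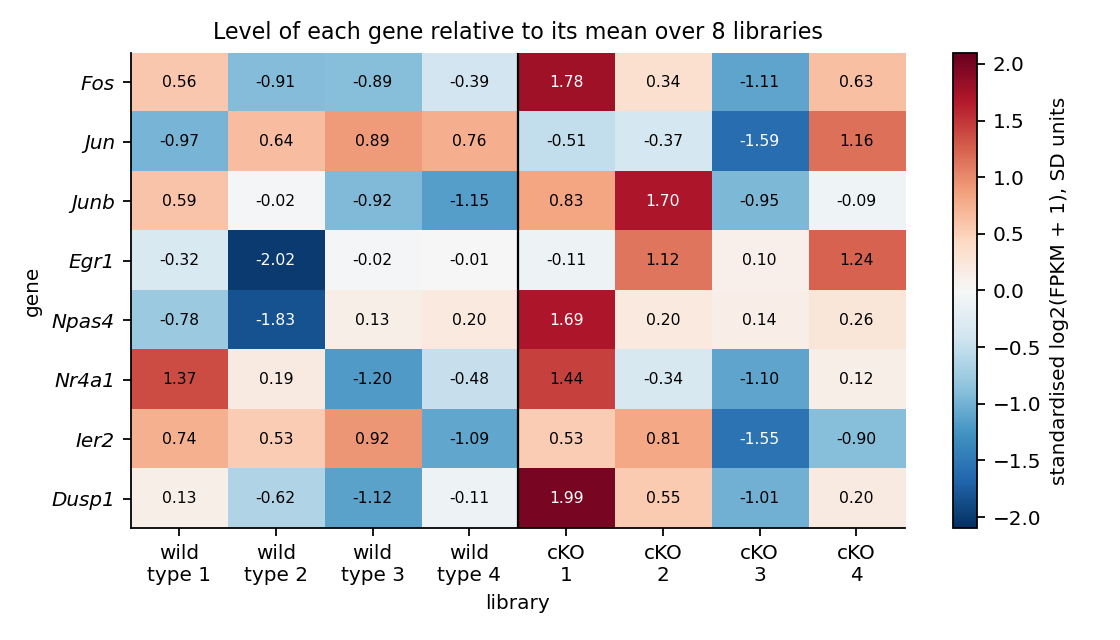
Level of each of the 8 testable genes in each of 8 frontal cortex libraries, as log2(FPKM + 1) in SD units from the gene's own mean (red above, blue below), wild type left of the line and cKO right of it. The column of cKO 1 is high for Fos (1.78), Npas4 (1.69), Nr4a1 (1.44) and Dusp1 (1.99), and the column of cKO 3 is low for Jun (-1.59) and Ier2 (-1.55).

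Fos and Dusp1 varied together across the 8 animals. Their log2(FPKM + 1) levels correlated with Pearson's r = 0.950 (exact permutation p = 7.19e-04, n = 8, adjusted p = 0.0201 over the 28 pairs of testable genes) and Spearman's rho = 0.857 (exact permutation p = 0.0107, adjusted p = 0.300). Without cKO 1 and cKO 3, the 2 libraries farthest from the median of Fos, r was 0.868. With each genotype centred on its own mean, r was 0.938 (adjusted p = 0.0417, permutation). That p-value is approximate and may be too small, because the centred values were permuted across the genotypes. Left out in turn, the libraries gave r between 0.901 (without cKO 1) and 0.965, and the adjusted p was above 0.05 for 6 of the 8 omissions. The size of r also depended on which transcripts were added up, since protein-coding transcripts alone gave r = 0.787 (exact permutation p = 0.0142, n = 8, adjusted p = 0.199). The pair thus passed in the summed values for Pearson's r but not for rho.

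**Figure D3:**
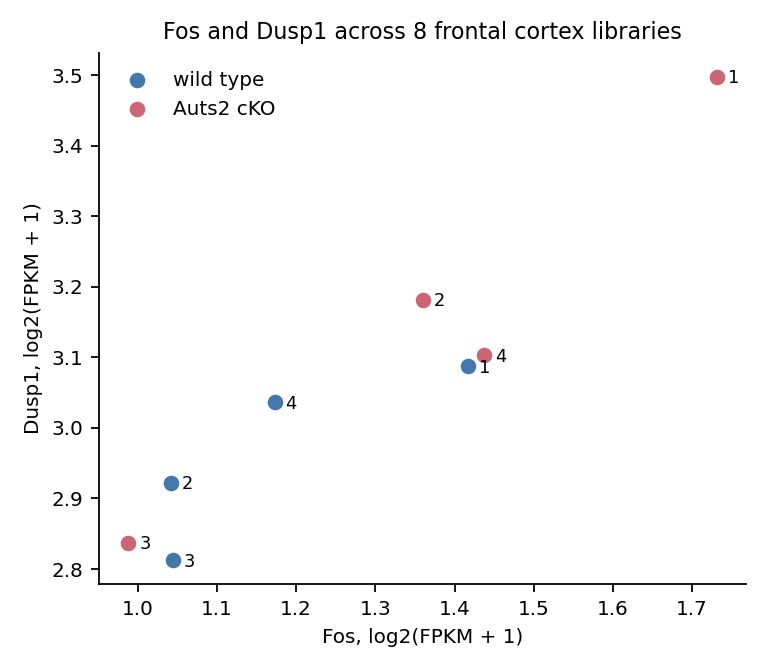
Dusp1 against Fos, both as log2(FPKM + 1), in 4 wild type (blue) and 4 cKO (red) libraries labelled by replicate number. The points follow a rising line with r = 0.950, from cKO 3 and wild type 2 and 3 at the lower left to cKO 1 alone at the upper right.

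The other 27 pairs did not pass. Nr4a1 followed the same libraries, with r = 0.801 to Fos (exact permutation p = 0.0174, n = 8, adjusted p = 0.243) and 0.752 to Dusp1 (exact permutation p = 0.0281, n = 8, adjusted p = 0.262). Of all 28 pairs 19 had a positive r, the median was 0.251 and the range ran from -0.274 to 0.950. The 8 genes most like the mean of the testable members, out of 8814 with a mean of at least 5 FPKM, were Mkrn3 (r = 0.969), Uqcrq (0.959), Cxcl14 (0.941), Crym (0.925), Bmyc (0.922), Twf2 (0.916), Tbca (0.914) and Adprm (0.912), each over the same 8 libraries. All 8 were highest in cKO 1, and none of them is an immediate early gene of the lists used here. These likenesses rest on 8 points that share library, depth and a highest value in cKO 1, and they are given as a description.

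In the pull-down, 3 of the genes were enriched over IgG: Jun, Npas4 and Fos. Jun read 38.4 and 35.8 FPKM in RIP A and B and 20.5 and 23.5 FPKM in IgG A and B (log2 0.73, SE 0.13, adjusted p = 0.0141, limma). Npas4 read 8.13 and 7.26 FPKM against 3.96 and 3.84 FPKM (log2 0.83, SE 0.21, adjusted p = 0.0359, limma), and Fos 3.13 and 3.27 FPKM against 0.923 and 1.28 FPKM (log2 1.00, SE 0.28, adjusted p = 0.0496, limma). In these summed values both RIP libraries lay above both IgG libraries for all 3 genes, by more than the spread inside either group. With protein-coding transcripts only, Fos did not pass (adjusted p = 0.401, limma). With length and GC trends removed, Npas4 did not pass (adjusted p = 0.133, limma). Fos was just inside the threshold. Its adjusted p was 0.0621 with the replicate letter as a block, 0.0513 with a pseudocount of 5, 0.0835 with no filter, 0.0608 with median-ratio rescaling, 0.0611 with length and GC trends removed, and 0.0661 to 0.317 with any of the 4 libraries left out. The Npas4 adjusted p was 0.0667 with no filter and 0.0742 to 0.269 with a library left out.

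These 3 calls among 9 testable genes stand beside 13.7% of 14570 tested genes called higher in the RIP, and none of the 9 was called lower, where 9.69% of all tested genes were. Among the 5690 tested genes whose main transcript was between 1522 and 3622 bases long, the range of the members, 10.5% were called higher. Groups did not overlap, with the RIP higher, for 5 of the 9 (Fos, Jun, Junb, Egr1 and Npas4), against 34.3% of tested genes. The median difference of the 9 was 0.44, beside 0.02 for all tested genes. With protein-coding transcripts only, 2 of the 9 and 2086 of 11541 tested genes were called higher, with medians of 0.42 and 0.11.

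The remaining genes were not separated from IgG by this test. Junb read 3.05 and 3.66 FPKM in the RIP and 0.359 and 1.74 FPKM in IgG, with the largest difference of all (log2 1.17) and also the largest error (SE 0.40, adjusted p = 0.0842, limma). Its IgG libraries differed from each other several-fold. The difference was 0.67 without IgG A (adjusted p = 0.159, limma) and 1.68 without IgG B (adjusted p = 0.0494, limma), and the adjusted p was 0.301 without RIP A and 0.378 without RIP B. Egr1 read 15.6 and 21.2 FPKM against 11.8 and 15.4 FPKM, so the lower RIP library and the higher IgG library nearly touched (log2 0.40, SE 0.21, adjusted p = 0.220, limma). Ier2 stood at 3.15 and 5.31 FPKM against 2.13 and 3.54 FPKM. Arc (1.57 and 1.85 FPKM against 1.49 and 1.62), Nr4a1 (2.04 and 4.06 against 2.88 and 3.09) and Dusp1 (5.96 and 8.73 against 6.38 and 8.22) overlapped with IgG and had differences of 0.08 (SE 0.30), -0.02 (SE 0.32) and 0.00 (SE 0.25). Fosb was not testable, at 0.303 and 0.139 FPKM in the RIP and listed at 0 in IgG A and at 0.412 FPKM in IgG B.

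**Figure D4:**
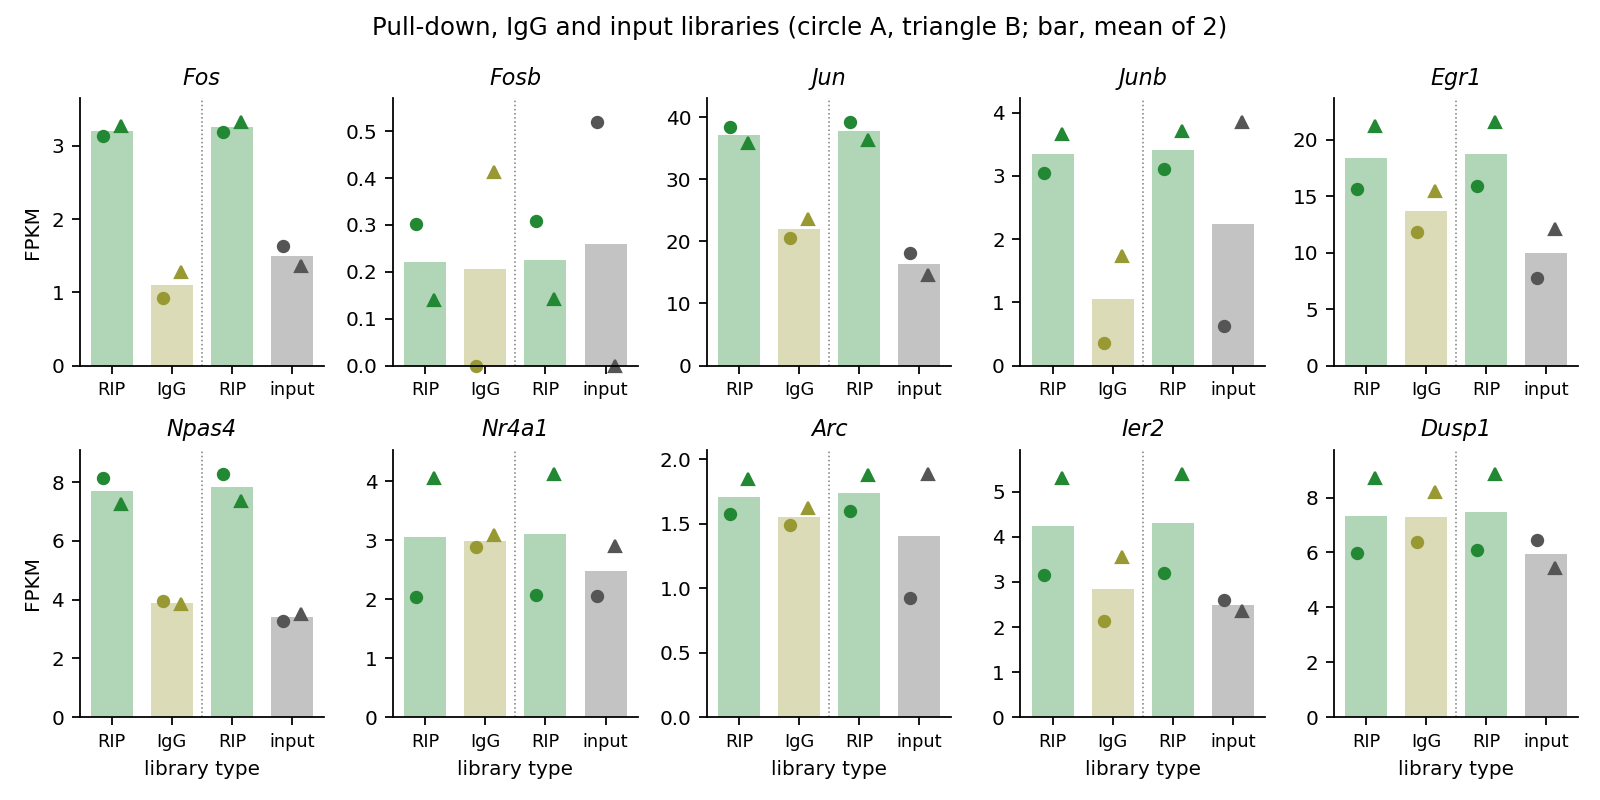
FPKM of the 10 genes in the RIP and IgG libraries (left of each dotted line, from the IgG table) and in the RIP and input libraries (right, from the input table), circles for A, triangles for B, bars for the mean of 2. Jun stands at 38.4 and 35.8 FPKM in the RIP above 20.5 and 23.5 FPKM in IgG, and Junb in input runs from 0.625 to 3.85 FPKM.

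Against input, Jun, Npas4 and Egr1 were enriched. Jun read 39.1 and 36.4 FPKM in the RIP and 18.1 and 14.7 FPKM in input (log2 1.16, SE 0.15, adjusted p = 0.0033, limma). Npas4 read 8.27 and 7.37 FPKM against 3.28 and 3.51 FPKM (log2 1.00, SE 0.20, adjusted p = 0.0138, limma), and Egr1 15.9 and 21.5 FPKM against 7.74 and 12.1 FPKM (log2 0.86, SE 0.26, adjusted p = 0.0448, limma). Fos stood above both input libraries, at 3.19 and 3.32 FPKM against 1.63 and 1.36 FPKM, without passing (log2 0.77, SE 0.26, adjusted p = 0.0671, limma). The Egr1 adjusted p was 0.0529 with median-ratio rescaling, 0.0515 with quantile normalization, 0.0932 with no filter, 0.0835 without limma's trend and robust settings, and 0.0535 to 0.265 with any of the 4 libraries left out. The Egr1 adjusted p stayed under 0.05 in limma with the replicate letter as a block (0.0119) and with a mean of at least 5 FPKM (0.0249). It did so too with protein-coding transcripts only (0.0335) and a pseudocount of 5 (0.0419). Fos passed under quantile normalization (adjusted p = 0.0370) and without trend and robust settings (adjusted p = 0.0302), so the count of 3 held under those 2 settings with Fos in place of Egr1. The RIP libraries are the same ones in both tables, scaled by 1.02 in each, so the comparisons with IgG and with input share them and do not support each other independently.

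Of 14458 tested genes, 19.3% were called higher against input and 16.6% lower. The members' 3 of 9 higher and 0 of 9 lower stand beside those shares, and beside 16.2% called higher among 5614 genes of the members' range of transcript lengths. Groups did not overlap, with the RIP higher, for 5 of the 9 (Fos, Jun, Egr1, Npas4 and Ier2), against 35.9% of tested genes. All 9 differences were positive, with a median of 0.65 beside -0.02 for all tested genes. With protein-coding transcripts only, 3 of the 9 and 2559 of 11608 tested genes were called higher, with medians of 0.61 and 0.04. Ier2 read 3.21 and 5.40 FPKM against 2.60 and 2.36 FPKM (log2 0.58, SE 0.29), Arc 1.60 and 1.87 against 0.925 and 1.88, Nr4a1 2.07 and 4.12 against 2.06 and 2.91, and Dusp1 6.07 and 8.86 against 6.46 and 5.42. Junb had inputs of 0.625 and 3.85 FPKM, the widest ratio among the 9, and its difference of 0.65 (SE 0.53) was -0.14 without input A and 1.44 without input B. Of the higher Junb input, 1.46 FPKM came from Junb-202, a non-coding transcript that overlaps Prdx2 on the opposite strand, and Prdx2 stood at 61.8 and 61.6 FPKM in input. Junb-202 was listed at 0 in input A and in every RIP, IgG and frontal cortex library. Prdx2 ranged from 234 to 315 FPKM in frontal cortex. Whether strand was used in counting is not given in the sources.

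Jun kept its call when features of the transcripts were taken into account. With trends of the log2 difference over transcript length and GC content removed, Jun was the only member called in either comparison, at 0.51 against IgG (adjusted p = 0.0432, limma) and 0.81 against input (adjusted p = 0.0126, limma). Npas4 then fell short at 0.52 (adjusted p = 0.133) and 0.51 (adjusted p = 0.112), and Egr1 at 0.65 against input (adjusted p = 0.116). Jun has 1 exon and 1 annotated transcript of 3189 bases, so its sum does not depend on how fragments were divided among isoforms. Junos, an antisense gene that overlaps it, was listed at 0 to 1.78 FPKM and was lower in the RIP libraries (0.278 and 0) than in IgG (1.16 and 0.803). Without limma's trend and robust settings the adjusted p of Jun against IgG was 0.0588, so Jun was not called there. With 2 libraries per group the calls were easily lost: none of the 9 passed against IgG without RIP A, RIP B or IgG A, or against input without RIP A, and without IgG A no gene of the whole table passed, where 3406 did with all 4 libraries.

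**Figure D5:**
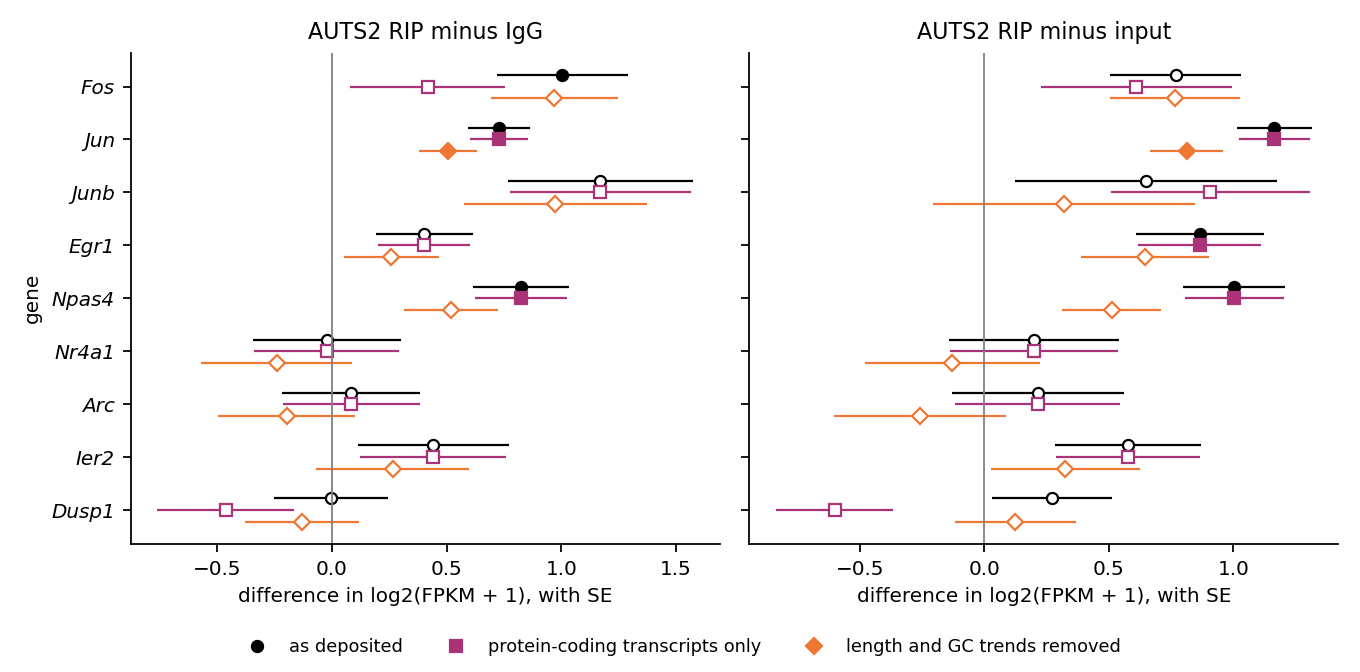
Difference in log2(FPKM + 1) between the RIP and IgG (left) and between the RIP and input (right) for 9 genes, with its standard error, for all transcripts as deposited (black), protein-coding transcripts only (purple) and with length and GC trends removed (orange), filled where the adjusted p is under 0.05. Jun is filled in all 3 settings on both sides, and Dusp1 against input turns from 0.27 to -0.60 when only protein-coding transcripts are counted.

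Fos and Dusp1 differed between libraries in their transcripts as well as in their sums. The mRNA Fos-201 stood at 2.28 and 1.38 FPKM in the RIP and 0.923 and 1.28 FPKM in IgG. The rest of the Fos sum in the RIP came from short non-coding transcripts, Fos-204 at 0.846 FPKM in RIP A alone and Fos-203 at 1.87 FPKM in RIP B alone. In input A, such transcripts made up 72.4% of the Fos sum, and in input B none. With protein-coding transcripts only, the difference of Fos from IgG was 0.42 (SE 0.34, adjusted p = 0.401, limma), so the Fos call rests on transcripts that the replicates did not share.

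For Dusp1 the listed values of the mRNA and of a retained-intron transcript differed from input in opposite directions, which the sum does not show. The mRNA Dusp1-202 was lower in the RIP than in input, at 2.65 and 3.67 against 5.11 and 5.42 FPKM. The retained-intron transcript Dusp1-203 stood at 3.42 and 4.25 FPKM in the RIP, while it was listed at 0 in input B and at under 0.001 FPKM in input A. Non-coding transcripts made up 56.4% and 58.5% of Dusp1 in the RIP, 44.6% and 27.2% in IgG, and 20.8% and 0% in input. They made up 18.4% to 35.7% in the 8 frontal cortex libraries. Those were made from polyadenylated RNA and the pull-down libraries from total RNA, and the part of this in the shares was not tested. With protein-coding transcripts only, Dusp1 was 0.60 lower than input on the log2 scale (log2 -0.60, SE 0.24, unadjusted p = 0.0414, adjusted p = 0.0875, limma). Against IgG the protein-coding difference was -0.46 (SE 0.30, adjusted p = 0.290, limma), and the mRNA values overlapped. Neither difference passed, and single transcripts were not tested. The division of fragments among overlapping isoforms is an estimate, and its error is not in the tables.

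No other gene of the pathway passed the test in the cKO. None of 13 tested immediate early transcription factors, 21 tested effectors or 28 upstream activators was called by limma, with 3, 1 and 1 at an unadjusted p under 0.05, and their median differences were -0.10, -0.05 and -0.03, beside 0.0013 for all genes. Klf6, a zinc finger factor, stood at 28.9 ± 1.50 FPKM in cKO animals and 33.4 ± 1.26 FPKM in controls (SD, n = 4 each; log2 -0.20, adjusted p = 0.628, limma), and Bhlhe40, a clock-linked repressor, at 11.9 ± 3.33 and 15.8 ± 1.00 FPKM. Among effectors, the matrix protein gene Ccn2 stood at 3.48 ± 0.96 and 5.01 ± 0.28 FPKM and the G protein regulator gene Rgs2 at 5.54 ± 0.67 and 4.57 ± 0.51 FPKM. Among activators, Atf1, a relative of CREB, stood at 3.72 ± 0.48 and 4.54 ± 0.19 FPKM and the MAP kinase kinase gene Map2k1 at 10.9 ± 0.59 and 9.15 ± 2.01 FPKM.

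The counts of called genes in the lists that follow stand beside 13.7% of all tested genes higher and 9.69% lower against IgG, and 19.3% and 16.6% against input. In the pull-down, 3 of 15 other transcription factors were called higher than IgG (Jund, Myc and Npas2) and none lower. Jund, the third JUN gene, stood at 64.1 ± 3.55 against 44.9 ± 3.57 FPKM (SD, n = 2 each; log2 0.50, adjusted p = 0.0284, limma), and Myc at 42.1 ± 4.60 against 26.0 ± 5.23 FPKM (log2 0.69, adjusted p = 0.0350, limma). The median of the 15 was -0.01, beside 0.02 for all tested genes. Against input 4 of 14 were called higher (Myc, Jund, Per1 and Nr4a3) and 2 lower (Crem and Klf6). Of 21 effectors tested against IgG, Plk2, a kinase of dendritic spines, and Ier5 were called higher and Homer1, a postsynaptic scaffold gene, lower. Of 22 tested against input, Plk2, Ier5 and Pim1 were called higher and Rheb and Homer1 lower.

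Activators went both ways within the pull-down, again beside 13.7% higher and 9.69% lower of all tested genes against IgG and 19.3% and 16.6% against input. The coactivator genes Ep300 (52.3 ± 2.49 against 34.0 ± 1.81 FPKM, SD, n = 2 each) and Crebbp (150.0 ± 5.76 against 109.8 ± 4.94 FPKM) and the kinase gene Camk2b were called higher than IgG. Creb1 (6.10 ± 0.79 against 14.3 ± 1.55 FPKM), Camk4 (6.97 ± 0.10 against 12.4 ± 0.49 FPKM) and Elk4 were among those called lower, 3 higher and 4 lower of 28 in all. Against input 8 of the 28 were called higher and 6 lower. Of 15 factors that bind AU-rich elements or carry out decay, 1 (Cnot1) was called higher and 3 (Cnot7, Btg1 and Elavl1) lower than IgG, and 1 (Cnot1) higher and 3 (Hnrnpd, Cnot7 and Btg1) lower than input. Heat shock genes were called higher for 3 of 7 against IgG (Hsp90aa1, Hspa5 and Hspa8) and for 4 of 7 against input, with 2 lower. In the cKO 0 of the 7 passed in limma, with 0 at an unadjusted p under 0.05. All 7 differences were positive there, with a median of 0.07 beside 0.0013 for all tested genes. The heat shock list summed to 923 to 1027 FPKM in cKO and 808 to 970 FPKM in wild type animals.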

How the data were processed

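Polyadenylated RNA (frontal cortex) and total RNA (pull-down) were sequenced, per the labels' protocols. The authors deposited FPKM per GENCODE transcript in 3 tables. Alignment and quantification tools named in the submitters' processing notes are STAR 2.5, SAMtools and Cuffdiff 2.2.1, on GRCm38.p4. Strand settings are not given in the sources. Transcripts (128508 per table, 127975 matched to GENCODE vM21 by identifier) were summed per symbol. Genes averaging at least 1 FPKM entered limma 3.58.1 as log2(FPKM + 1) (R 4.3.3, trend and robust settings, two-sided) within each table, adjusted by Benjamini-Hochberg over all tested genes at 0.05. Adding 1 understates changes of low genes. Fits were tested on simulated data. All members are named, with up to 6 called genes per list (else the 2 smallest p), the 8 genes most like the members, and Auts2; other genes named were chosen after their values were seen. Not every gene selected in this way is reported here. Members and lists were chosen with earlier results of these data known. Replicates are biological per the design text, which matches RIP, IgG and input as trios by letter (correlation of same-lettered deviations 0.0088 and 0.012). Python 3.11.15 with pandas 2.3.3 and matplotlib 3.10.9 made tables and figures.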

Additional observations from a re-analysis of the deposited data

Results flagged for a closer look

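In groups of 4 libraries, the lowest or highest value was compared with its nearest neighbour by Dixon's ratio, and 2 of 20 groups of member values held a library set apart, where chance gives about 1 in 20. Jun stood at 7.96 FPKM in wild type 1, below the other 3 wild type libraries. Npas4 stood at 1.87 FPKM in cKO 1, above the other 3 cKO libraries. Both libraries are among the 3 that stood apart across all genes, and the part of that in these values was not tested.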

How the results depend on the processing

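No member was called in the cKO under any of the alternatives, and the number of genes called was 1 (not 3) with no filter, without trend and robust settings and with Xist state as a covariate, and 1 to 3 with a library left out. Against IgG the members called were 3 with a pseudocount of 0.1 and quantile normalization, and 1 with no filter or length and GC trends removed. They were 2 with a pseudocount of 5, with median-ratio rescaling, without trend and robust settings, with the replicate block and with protein-coding transcripts only. With a mean of at least 5 FPKM they were 2 of the 4 tested. Calls were lost with each library left out, which leaves a lone library in a group. Genes called there were 1876 (not 3406) without trend and robust settings and 0 to 1806 with a library left out. Against input the members called were 1 (not 3) with length and GC trends removed, and 0 to 3 with a library left out, with 1395 to 3471 (not 5188) genes called. Members called against input were 2 with no filter and with median-ratio rescaling. Correlated member pairs numbered 0 to 2 (not 1) with a library left out. Signs turned for uncalled members. Against IgG, Arc was -0.20 with length and GC trends removed, Nr4a1 0.17 and Dusp1 0.042 with quantile normalization, and Dusp1 8.9e-05 with a pseudocount of 5. Against input, Arc was -0.26 and Nr4a1 -0.13 with length and GC trends removed, and Dusp1 -0.60 with protein-coding transcripts only, an alternative chosen after seeing the data, as was the fit without the 3 libraries that stood apart. With a library left out, Nr4a1 ranged from -0.083 to 0.11 in the cKO and from -0.39 to 0.35 against IgG, Dusp1 from -0.24 to 0.24 against IgG, and against input Junb from -0.14 to 1.44, Arc from -0.078 to 0.51 and Nr4a1 from -0.17 to 0.57. With the replicate block 0, 2 and 3 members and 4, 3455 and 5222 genes were called in the cKO, IgG and input comparisons, and Fos against IgG was the only member whose call changed. cKO and wild type share replicate numbers only (correlations of same-numbered deviations -0.04 to 0.18, with 1 of 4 numbers matching its own best). A lone library left in a group is assumed to vary like the other group. The causes were not tested. Depth is unknown, so counting error cannot be separated from other spread.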
